A study of Mus musculus with 9 samples.

Results

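S100a4, S100a6, S100a10, S100a11, S100a13, Anxa1, Anxa2, Lgals1, Lgals3 and Vim were followed across naive and primed mouse CD8 T cells; they encode calcium-binding S100 proteins and annexins, glycan-binding galectins and the filament protein vimentin. They are 10 of the 23936 genes with a symbol in the deposited expression table, and all 10 reached the level set for testing. They were chosen by name with their FPKM in all 3 groups of libraries already in view, so the differences given for them describe these libraries and carry no test. FPKM (fragments per kilobase of transcript, scaled to the mapped fragments of the library) allow for transcript length, so levels can be set side by side between genes. A trend with transcript length that differed between naive and primed libraries remained, as given below, so such comparisons are approximate.

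S100 proteins are small calcium sensors with EF-hand motifs that work as dimers and bind partner proteins when calcium rises. Annexins bind membrane phospholipids in a calcium-dependent way, and several S100 proteins pair with an annexin: S100A10 with annexin A2 and S100A11 with annexin A1. Galectins bind sugar chains that carry galactose, such as the N-glycans of T cell surface receptors, and vimentin forms the intermediate filament network of lymphocytes. Several of these genes are known as transcripts of effector and memory T cells.

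The cells were OT-I CD8 T cells, which carry a transgenic receptor for an ovalbumin peptide on MHC class I. Each group had 3 libraries: naive cells taken from the spleen, spleen-primed cells taken from the spleen (title word "iv") and MLN-primed cells taken from the MLN, a gut-draining lymph node (title word "oral"). All 9 libraries are from cells with the same transgenic receptor, and organ and title word change together between the primed groups, so they cannot be told apart. The series title names retinoic acid signalling during priming and intestinal CD103+ resident memory cells. Time after priming, sorting gate and animals per library are not recorded in the labels, and nothing says that the 3 libraries of a group come from separate animals, so p-values measure only the spread between libraries, which may be technical.

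Total FPKM were 612887 to 720165 per library, 9469 to 9667 genes reached 1 FPKM, and the steps between low values give a rough depth of 19200000 to 31400000 mapped fragments. The model tested 10185 genes, and at an adjusted p of 0.05 it called 75.8% of them in spleen-primed against naive cells, 78.7% in MLN-primed against naive cells and 30.4% in MLN-primed against spleen-primed cells. Most genes therefore differed from naive. Of those called in spleen-primed against naive cells, 4387 were higher and 3331 lower, and with quantile normalisation 3545 were higher and 4070 lower. Median-of-ratios scaling moved the median log2 difference of all tested genes by -0.11 in spleen-primed and -0.15 in MLN-primed against naive cells, and quantile normalisation by -0.17 and -0.19.

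All 10 genes were higher in every primed library than in every naive library, as were 44.5% (spleen-primed) and 45.8% (MLN-primed) of all tested genes. Together they held 0.206%, 0.206% and 0.201% of all FPKM in the naive libraries, 2.62%, 2.60% and 2.50% in the spleen-primed libraries and 1.63%, 1.66% and 1.61% in the MLN-primed libraries. The spleen-primed libraries gave them the highest share and the 3 groups did not overlap. The 5 S100 genes held 0.147% ± 0.00321 of naive FPKM, 1.31% ± 0.0254 of spleen-primed and 0.607% ± 0.0206 of MLN-primed FPKM (SD, n = 3). All 10 were past the threshold and higher in both comparisons with naive cells, where 43.1% (spleen-primed) and 45.5% (MLN-primed) of tested genes were. Their median differences were 5.11 and 4.30, on the log2(FPKM + 1) scale, against 0.10 and 0.15 over all tested genes. The genes were chosen with these values in view, so nothing is read from that count.

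**Figure D1:**
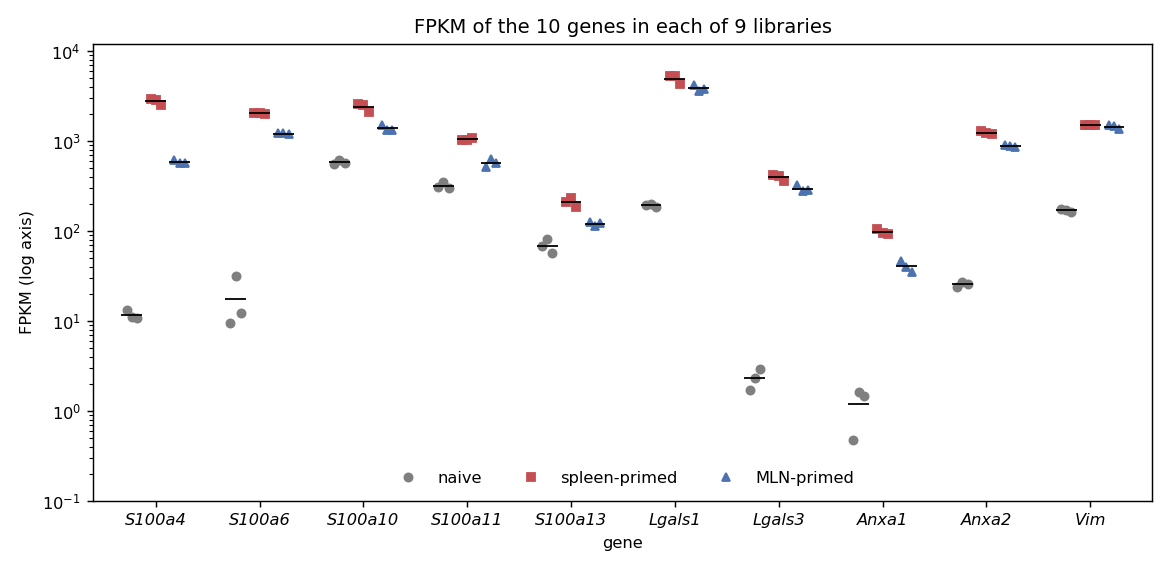
FPKM of the 10 genes on a log axis, 1 point per library and a bar at the mean of 3 libraries, for naive, spleen-primed and MLN-primed cells. Every primed point lies above every naive point of its gene, Lgals1 is the most abundant gene in both primed groups, and the primed groups overlap for Vim only.

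S100a4 and S100a6 stood lowest of the 5 S100 members in naive cells and among the most abundant transcripts after priming. S100a4, also called metastasin or FSP1, was at 13.2, 11.1 and 10.9 FPKM (naive libraries), 2971, 2883 and 2515 (spleen-primed) and 612, 564 and 569 (MLN-primed). No library of one group reached the range of another, and the means ranked 4747, 34 and 169 among all genes. The spleen-primed mean was 238 times the naive mean and the MLN-primed mean 49.6 times, and the spleen-primed mean was 4.80 times the MLN-primed mean. On the log2(FPKM + 1) scale used for all differences below, S100a4 differed by 7.78, 5.52 and -2.26 (SE 0.090) in spleen-primed against naive, MLN-primed against naive and MLN-primed against spleen-primed cells. That last value is the largest of the 10 genes, and it lay between -2.67 and -2.21 in 20 alternative analyses.

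S100a6, which encodes calcyclin, was at 9.41, 31.3 and 12.2 FPKM (naive libraries), 2068, 2050.5 and 2013 (spleen-primed) and 1219.9, 1231 and 1184 (MLN-primed). Naive replicate 2 stood above the other naive libraries, while both primed groups were tight and did not overlap. The mean differed from naive by 6.96 after spleen priming and 6.21 after MLN priming, and by -0.75 between the primed groups, each with an SE of 0.32. The ratio of S100a4 to S100a6 was 1.36 ± 0.101 after spleen priming and 0.480 ± 0.0217 after MLN priming (SD, n = 3). S100a4 was thus above S100a6 in all 3 spleen-primed libraries and below it in all 3 MLN-primed ones.

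S100a10, S100a11 and S100a13 were already abundant in naive cells and differed less. S100a10, the annexin A2 partner also known as p11, was at 554, 609 and 569.6 FPKM (naive libraries), 2575, 2519.8 and 2097 (spleen-primed) and 1500.1, 1319 and 1331 (MLN-primed). Spleen-primed cells were 4.15 times and MLN-primed cells 2.40 times the naive mean, with no overlap, and the MLN-primed difference of 1.26 was 0.79 once a trend with transcript length was removed from each library. S100a11, the annexin A1 partner, was at 305, 349.8 and 301 FPKM (naive libraries), 1035.5, 1040.2 and 1073 (spleen-primed) and 510.2, 624 and 577 (MLN-primed). Its differences from naive of 1.72 (spleen-primed) and 0.84 (MLN-primed) were 1.15 and 0.27, the latter not past the threshold, with the length trend removed, and 1.14 and 0.24 with quantile normalisation. S100a13, a partner in the release of growth factors that lack a signal peptide, was the least abundant of the 5 in spleen-primed and MLN-primed cells, at 209.8 ± 24.4 and 121 ± 5.83 FPKM against 68.6 ± 12.0 in naive cells (SD, n = 3), with no overlap. Its MLN-primed difference from naive was 0.82, against 0.25, not past the threshold, with quantile normalisation and 0.37 with the length trend removed.

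Transcripts of S100a11 share 98.99% of 297 aligned bases with Gm12854 and 98.65% of 297 with Gm7665, both processed pseudogenes, and S100a4 shares 302 bases at 100% with Gm42674. These copies have no row in the table, so how reads were divided between them is unknown, and the levels of S100a11 and S100a4 are uncertain to that extent. S100a13 (chr3:90514233-90524581, plus strand) overlaps S100a1 on the other strand by 98 bp in the RefSeq annotation of GRCm38.p6. Use of strand in counting is not stated. Lgals1 overlaps Gm30368 by 1271 bp and Anxa2 holds Mir3109 within its span.

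The 5 S100 genes lie on mouse chromosome 3 with most of their family, which lets close neighbours be compared. In GRCm38.p6, 12 S100 genes from S100a1 to S100a9 fall within 185 kb, and S100a11 and S100a10 lie 2.82 Mb further on. S100a4 (chr3:90603770-90606045) and S100a6 (chr3:90612894-90614414) have only S100a5 between them, 434 bp after S100a4 and 1109 bp before S100a6. S100a5 averaged 0 FPKM in naive cells, 0.389 after spleen priming and 0.413 after MLN priming, against means of 2789 for S100a4 and 2044 for S100a6 in spleen-primed cells. S100a3, which ends 1063 bp before S100a4, averaged 0.0583, 2.49 and 4.20 FPKM. In primed cells the 2 most abundant S100 genes of this stretch thus flank a gene that stayed under 1 FPKM in all libraries.

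**Figure D2:**
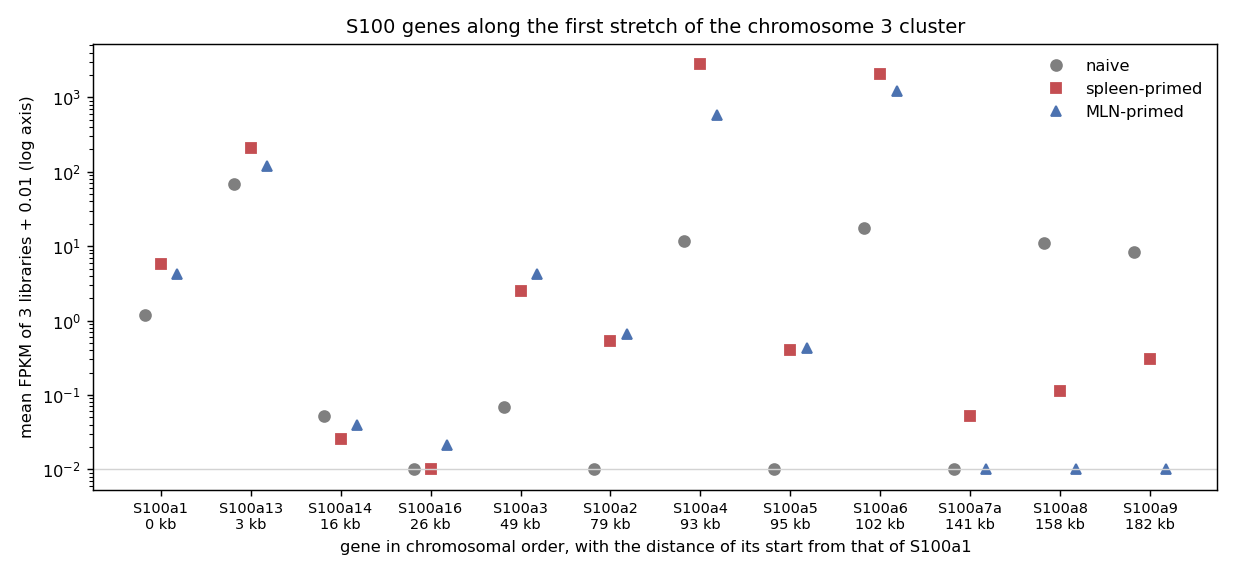
Mean FPKM (plus 0.01, log axis; 3 libraries per point) of the 12 S100 genes of the chromosome 3 stretch in chromosomal order, with the distance of each start from that of S100a1. S100a13, S100a4 and S100a6 stand above the genes next to them in all 3 groups, and S100a8 and S100a9 are near or at 0 in primed cells.

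Sequences just upstream of the RefSeq starts (250 bases each, GRCm38.p6) are shown for S100a4 and S100a6, the neighbours with the largest differences. That of S100a11, a member with a much smaller difference from naive, is shown for contrast. Capitals mark matches to 4 motifs on either strand, the TATA box TATAAA, the box with the letters CCAAT, the GC box GGGCGG and the AP-1 site TGANTCA, chosen after the sequences had been read. The S100a4 window is chr3:90603520-90603769, that of S100a6 is chr3:90612644-90612893 and that of S100a11 is chr3:93520246-93520495, all on the plus strand.
S100a4: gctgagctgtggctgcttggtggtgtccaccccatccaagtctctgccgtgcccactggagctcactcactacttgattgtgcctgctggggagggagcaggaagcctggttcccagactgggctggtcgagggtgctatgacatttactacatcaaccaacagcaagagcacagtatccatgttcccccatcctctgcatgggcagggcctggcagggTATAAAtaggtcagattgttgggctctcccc
S100a6: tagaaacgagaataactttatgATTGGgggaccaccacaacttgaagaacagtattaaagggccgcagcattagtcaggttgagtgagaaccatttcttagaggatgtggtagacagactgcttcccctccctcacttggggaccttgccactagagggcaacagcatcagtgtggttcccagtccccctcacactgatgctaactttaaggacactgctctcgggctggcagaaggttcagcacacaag
S100a11: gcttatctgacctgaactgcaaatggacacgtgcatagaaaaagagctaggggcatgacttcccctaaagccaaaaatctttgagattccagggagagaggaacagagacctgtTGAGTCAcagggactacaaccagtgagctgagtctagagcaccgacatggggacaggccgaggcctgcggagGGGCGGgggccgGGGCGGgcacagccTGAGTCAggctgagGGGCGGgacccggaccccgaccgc
S100a4 has TATAAA beginning 31 bases before the start and S100a6 has none, while both differed most from naive among the S100 genes. S100a11 has TGAGTCA at 136 and 38 bases before the start and 3 GC boxes. Of 27025 RefSeq promoters of the same length, 12.97% hold TATAAA, 34.5% CCAAT, 32.9% GGGCGG and 6.87% TGANTCA. Of the 8 members with a promoter entry, 4 hold TATAAA, 3 CCAAT, 3 GGGCGG and 2 TGANTCA, and a match describes letters only.

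Of 12 other S100 genes in the table, 3 were expressed enough to be tested. S100a1, a calcium sensor best known from heart muscle, averaged 1.18 ± 0.339 FPKM in naive cells. It was higher in both primed groups, at 5.71 ± 0.888 FPKM after spleen priming and 4.18 ± 1.0 after MLN priming. Naive replicate 3 was under 1 FPKM, at 0.857, so S100a1 reached the level for testing only with its primed libraries. Its differences of 1.62 (SE 0.17) and 1.24 from naive are therefore a description. S100a3, named after its values were seen because it lies next to S100a4, reached the level set for testing through its primed libraries alone, so its differences of 1.72 and 2.27 are a description. S100a8, a subunit of the neutrophil protein calprotectin, went from 1.82, 12.1 and 19.6 FPKM in the naive libraries to at most 0.154 in primed ones. It reached the level for testing through the naive libraries alone, so its differences of -3.06 and -3.19 are a description. Neutrophil markers, a list that itself holds S100a8 and S100a9, moved with it: their summed level was 3.58, 26.1 and 39.1 FPKM in the naive libraries and at most 1.42 in the primed ones, and their part in the S100a8 values was not tested. The other 9 genes of the list were not tested, and S100a9, at 0.918, 9.77 and 14.1 FPKM in naive libraries, was the only one of them above 1 FPKM.

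Annexins A1 and A2 were low in naive cells and high in primed cells. Anxa2 (chr9:69453683-69491792), which links membranes to actin, was at 23.8, 27.1 and 25.6 FPKM (naive libraries), 1282, 1239 and 1197 (spleen-primed) and 902, 879.9 and 849 (MLN-primed). The groups did not overlap, and the means were 48.7 times and 34.4 times the naive mean. The differences were 5.55, 5.05 and -0.50 (SE 0.066), the last between -0.55 and -0.47 in 20 alternatives. Its partner S100a10 varied less, so the ratio of S100a10 to Anxa2 FPKM was 23.3, 22.5 and 22.3 (naive libraries), 2.01, 2.03 and 1.75 (spleen-primed) and 1.66, 1.499 and 1.57 (MLN-primed). Naive cells thus held many S100a10 transcripts per Anxa2 transcript and primed cells only a few, with the MLN-primed libraries below all spleen-primed ones.

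The Anxa2 window before its start (chr9:69453433-69453682, GRCm38.p6, plus strand) is shown because it holds 3 of the 4 motifs, marked in capitals as above.
Anxa2: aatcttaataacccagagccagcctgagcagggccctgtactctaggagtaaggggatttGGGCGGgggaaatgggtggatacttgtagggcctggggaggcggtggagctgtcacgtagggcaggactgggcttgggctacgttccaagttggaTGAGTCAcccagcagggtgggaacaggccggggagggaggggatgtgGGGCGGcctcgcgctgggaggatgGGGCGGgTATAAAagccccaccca
TGAGTCA begins 95 bases before the start, TATAAA 17 bases and GGGCGG 190, 48 and 24 bases before it.

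Anxa1 (chr19:20373434-20390671), whose product acts on formyl peptide receptors to limit inflammation, was at 0.475, 1.62 and 1.47 FPKM (naive libraries), 106, 95.9 and 93.1 (spleen-primed) and 46.1, 40.2 and 34.6 (MLN-primed). Spleen-primed cells had 2.44 times the MLN-primed level, the second widest gap between the primed groups after S100a4, with no overlap. The difference between the primed groups was -1.28 (SE 0.20). The naive values rest on about 15.2, 64.8 and 51.8 fragments, so the fold over naive (82.9 and 33.9) is loosely fixed. In bulk RNA, fewer cells with a transcript and less of it per cell cannot be told apart, for these and all genes below.

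All 5 other annexins that could be tested rose in both primed groups, where 43.1% and 45.5% of all tested genes did, although Anxa11 in MLN-primed cells turned to -0.17 with quantile normalisation. Their median differences were 1.11 and 1.04 against 0.10 and 0.15 over all tested genes. Anxa4 was the largest, from 0.932 ± 0.269 naive FPKM to 26.0 ± 1.27 after spleen priming and 12.9 ± 0.555 after MLN priming (SD, n = 3). Only naive replicate 1 reached 1 FPKM, so Anxa4 met the level for testing through its primed libraries. Its differences of 3.81 and 2.86 from naive are therefore a description. The medians above include Anxa4, and its rise cannot count among the 5 set against the share of all tested genes. From spleen-primed to MLN-primed cells Anxa4 fell by 0.95 (adjusted p = 2.41e-04, limma with Benjamini-Hochberg adjustment). Anxa6, the most abundant annexin of naive cells, went from 282.9 ± 14.5 to 787 ± 15.0 and 602 ± 21.4 FPKM (1.47 and 1.09, limma adjusted p = 1.67e-08 and 1.16e-07). Anxa5, the protein used to stain dying cells, rose by 1.11 and 0.52, and Anxa7 by 0.92 and 1.04. For Anxa5 in MLN-primed cells the difference was 0.10 with quantile normalisation, past no threshold, and for Anxa11 (0.62 and 0.33) the call ended with quantile normalisation in both primed groups, at 0.15 and -0.17, and with median-of-ratios scaling in MLN-primed cells, at 0.16. The other 5 annexins, Anxa3, Anxa8, Anxa9, Anxa10 and Anxa13, did not exceed 0.747 FPKM in any library.

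**Figure D3:**
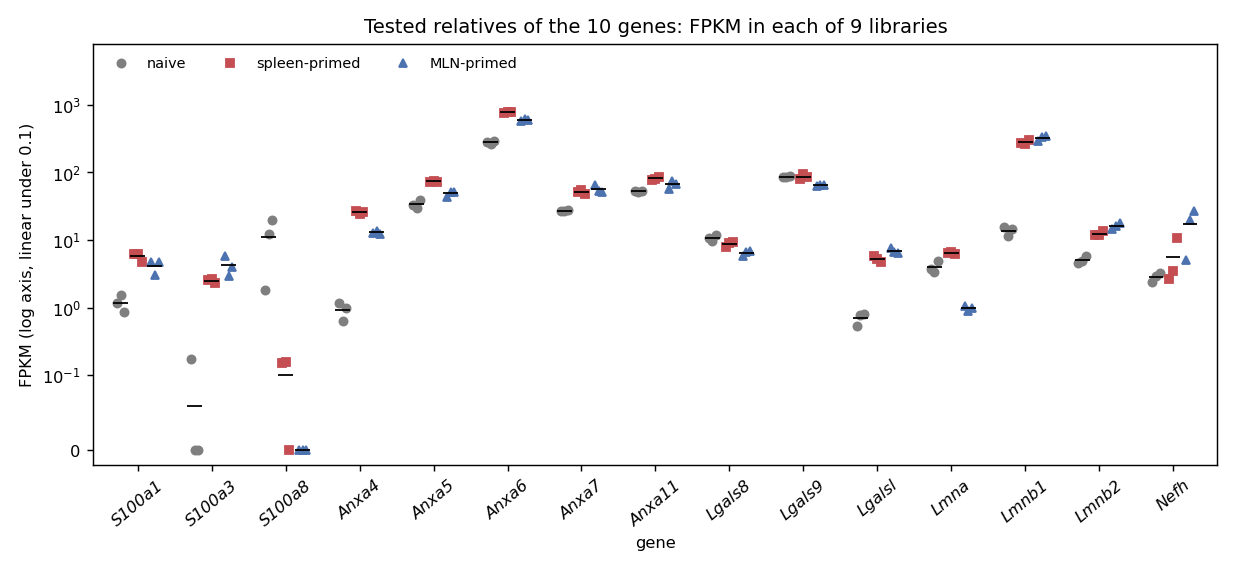
FPKM of tested relatives of the 10 genes (other S100 genes, annexins, galectins and intermediate filament genes), 1 point per library with a bar at the group mean, on an axis that is logarithmic above 0.1 FPKM and linear below. All 5 annexins have higher mean FPKM in primed than in naive libraries (Anxa11 in MLN-primed cells turns to -0.17 with quantile normalisation), while Lgals8, Lgals9 and Lmna are lowest in MLN-primed libraries.

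Galectin 1 was the most abundant of the 10 genes in primed cells, and galectin 3 was nearly silent in naive cells. Lgals1 (chr15:78926725-78930465), a secreted galectin that can trigger T cell death, was at 193, 201 and 183 FPKM (naive libraries), 5327, 5233 and 4317 (spleen-primed) and 4243, 3628 and 3813 (MLN-primed). Its mean had rank 310 among all naive means, 6 after spleen priming and 10 after MLN priming, and the primed groups came close without overlapping, with spleen-primed replicate 3 at 4317 and MLN-primed replicate 1 at 4243. The differences were 4.68, 4.33 and -0.35 (SE 0.099). Lgals3 (chr14:47373860-47386167), a galectin that can cross-link surface glycoproteins into lattices, was at 1.70, 2.33 and 2.95 FPKM (naive libraries), 417, 407 and 359 (spleen-primed) and 323, 277 and 285 (MLN-primed). Its means were 169 times and 127 times the naive mean, and its differences were 6.91, 6.49 and -0.42 (SE 0.13). The ratio of Lgals1 to Lgals3 was 12.5 ± 0.467 after spleen priming and 13.2 ± 0.166 after MLN priming (SD, n = 3). The ranges, 12.0 to 12.9 and 13.1 to 13.4, lay side by side without overlap.

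Of 8 other galectin genes 3 were tested, and they moved in different directions. Lgalsl, a galectin-like gene, rose from 0.700 ± 0.153 FPKM to 5.28 ± 0.523 and 6.91 ± 0.671. It was under 1 FPKM in every naive library and reached the level for testing through its primed libraries alone. Its differences of 1.89 and 2.22 from naive are therefore a description. Lgals9, a ligand of TIM-3, was at 86.8 ± 2.33 FPKM in naive and 87.0 ± 6.35 in spleen-primed cells (limma adjusted p = 0.985) and fell to 64.2 ± 1.99 in MLN-primed cells (limma adjusted p = 1.90e-04 against naive and 0.00131 against spleen-primed). Lgals8, at 10.7 ± 1.07, 8.68 ± 0.788 and 6.43 ± 0.634 FPKM, fell by 0.65 in MLN-primed against naive cells (limma adjusted p = 2.27e-04). The other 5, among them Lgals4 and Lgals7, did not exceed 0.764 FPKM in any library.

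Genes that build or carry galectin ligands were taken as a list of 15, of which 14 were tested. Against naive cells, 4 rose and 7 fell in spleen-primed and 4 rose and 6 fell in MLN-primed cells, with medians of -0.14 and -0.17; of all tested genes 43.1% and 45.5% rose and 32.7% and 33.2% fell. With quantile normalisation 2 rose in spleen-primed cells. The largest change was that of St6gal1, which adds the sialic acid that blocks galectin 1 binding. It went from 88.4, 78.5 and 88.5 FPKM (naive libraries) to 0.333 to 0.467 (spleen-primed) and 0.154 to 0.437 (MLN-primed). St6gal1 reached the level for testing through the naive libraries alone, so its differences of -5.95 and -6.09 are a description. Its fall cannot count among those set against the share of all tested genes. Cd7, a galectin 1 receptor, fell from 251 ± 23.8 to 66.9 ± 4.26 and 34.1 ± 2.62 FPKM. Mgat5, which makes the branched N-glycans that galectin 3 binds, went from 3.92 ± 0.238 to 1.17 ± 0.280 and 1.01 ± 0.153 FPKM (limma adjusted p = 4.64e-06 and 1.96e-06). The 4 calls of higher genes in MLN-primed cells were lost with median-of-ratios scaling, quantile normalisation and without naive replicate 3, and 1 or 2 were left without naive replicate 2, without any one MLN-primed library or without the filter.

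Vimentin was the 1 member whose primed libraries overlapped. Vim (chr2:13574311-13582826) was at 174, 171 and 162 FPKM (naive libraries), 1507, 1512 and 1522 (spleen-primed) and 1509, 1465 and 1356 (MLN-primed), so MLN-primed replicate 1 fell within the spleen-primed range. The means were 8.95 times and 8.53 times that of naive cells, and the difference between the primed groups was -0.07 (SE 0.065), between -0.12 and -0.01 in 20 alternatives. Its upstream window (chr2:13574061-13574310, GRCm38.p6, plus strand) is shown as that of the member whose levels overlapped between the primed groups.
Vim: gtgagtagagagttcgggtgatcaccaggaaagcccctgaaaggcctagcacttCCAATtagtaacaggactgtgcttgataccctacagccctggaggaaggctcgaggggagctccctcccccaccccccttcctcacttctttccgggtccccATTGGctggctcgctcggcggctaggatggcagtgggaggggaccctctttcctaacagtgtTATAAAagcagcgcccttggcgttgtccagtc
Capitals mark CCAAT boxes beginning 196 and 94 bases and TATAAA 32 bases before the start.

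Of 20 other intermediate filament genes 4 could be tested, the lamin genes of the nucleus and the neurofilament gene Nefh. Nefh lay at 2.62 to 10.8 FPKM over the spleen-primed and 5.11 to 27.3 over the MLN-primed libraries, and rose by 2.0 (SE 0.56, limma adjusted p = 0.00767) in MLN-primed against naive cells, so no other cytoplasmic filament gene came near Vim. Lmnb1 rose from 13.8 ± 2.19 FPKM to 280 ± 23.5 and 324 ± 26.5 (4.25 and 4.46, limma adjusted p = 6.52e-10 and 4.05e-10), and Lmnb2 from 5.06 ± 0.603 to 12.5 ± 1.11 and 16.2 ± 1.55. Lmna, which encodes lamins A and C, was the gene of this list that went in opposite directions: from 3.76, 3.31 and 4.88 FPKM in naive libraries it rose to 6.52, 6.57 and 6.28 in spleen-primed libraries (0.59, limma adjusted p = 8.51e-04) and fell to 1.06, 0.886 and 0.984 in MLN-primed libraries (-1.32, limma adjusted p = 2.18e-06). The groups did not overlap, and MLN-primed against spleen-primed cells differed by -1.91 (SE 0.11, limma adjusted p = 1.11e-05).

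Between the primed groups the 10 genes ranked S100a4, Anxa1, S100a11, S100a10, S100a13, S100a6, Anxa2, Lgals3, Lgals1 and Vim by the size of the difference, from -2.26 to -0.07, all lower in MLN-primed cells. Their median was -0.77, against 0.03 over all tested genes. The libraries did not overlap for 9 of 10 genes, where 21.0% of tested genes were lower without overlap. At the threshold 8 were lower, where 13.1% of tested genes were, and S100a6 and Vim were not, though these counts again come from values in view when the genes were listed. S100a6 was past the threshold without naive replicate 2 and with the primed libraries alone, at -0.75 in both cases. Lgals1 was not past it without spleen-primed replicate 1 (-0.29) or 2 (-0.30) or MLN-primed replicate 2 (-0.30) or 3 (-0.33), and Lgals3 was not without the same libraries (-0.38, -0.39, -0.37 and -0.39). Without the filter on low values neither was past it, nor was Lgals1 with the primed libraries alone, nor Lgals3 with a pseudocount of 0.1 or with the replicate number as a block, at differences of -0.35 for Lgals1 and -0.42 for Lgals3.

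**Figure D4:**
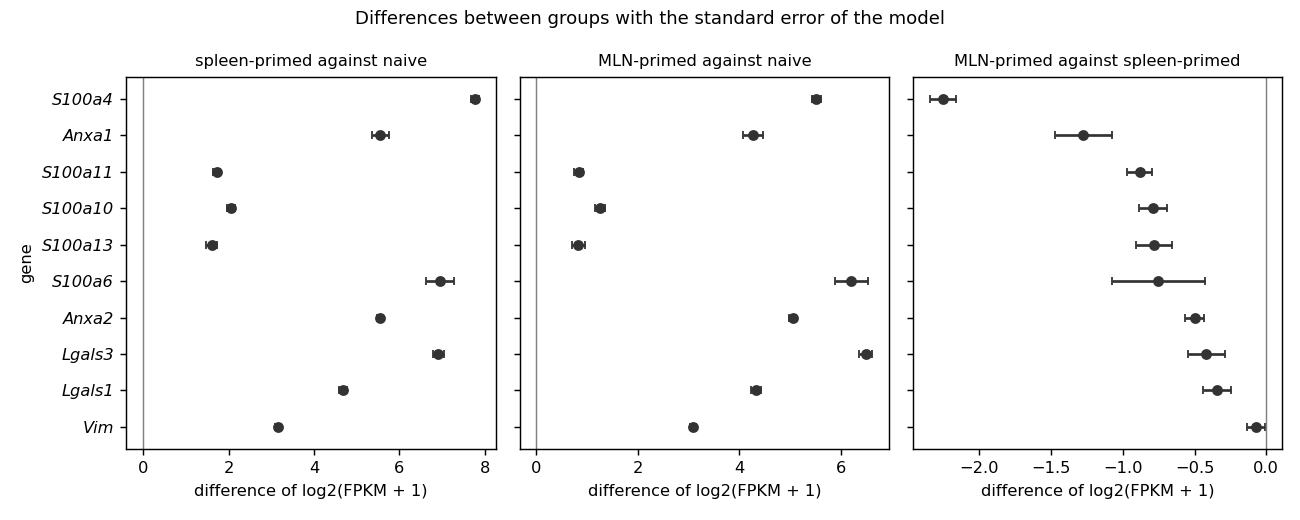
Differences of log2(FPKM + 1) between group means for the 10 genes, with bars for the standard error of the model over 9 libraries, in 3 panels whose axes differ in range. The genes are sorted by MLN-primed against spleen-primed cells, where S100a4 lies at -2.26 and Vim at -0.07.

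Within the primed groups the libraries followed an order that most of the 10 genes shared. Spleen-primed replicate 3 was the lowest of its group for 8 of 10 genes and spleen-primed replicate 1 the highest for 7, and MLN-primed replicate 1 was the highest of its group for 8. The trend of log2 values with transcript length, relative to the group, was 0.0777 per doubling in spleen-primed replicate 3 and -0.0876 in MLN-primed replicate 1, the extremes of the 9 libraries. The 10 transcripts are 498 to 2193 bp long, and the part of this trend in their order was not tested. Where a length trend was removed, it was instead the slope relative to the mean of all 9 libraries. That slope was 0.110 to 0.183 per doubling in naive libraries, -0.131 to -0.00266 in spleen-primed and -0.164 to -0.0149 in MLN-primed ones, so naive and primed libraries did not overlap. With that slope removed from each library the differences between the primed groups were -2.25 for S100a4, -1.27 for Anxa1 and -0.50 for Anxa2.

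In order of level, naive cells had S100a10, S100a11, Lgals1, Vim, S100a13, Anxa2, S100a6, S100a4, Lgals3 and Anxa1, where neighbouring libraries overlapped for Anxa2 with S100a6 and for S100a6 with S100a4. Spleen-primed cells had Lgals1, S100a4, S100a10, S100a6, Vim, Anxa2, S100a11, Lgals3, S100a13 and Anxa1, with overlap for S100a4 and S100a10 only. MLN-primed cells had Lgals1, Vim, S100a10, S100a6, Anxa2, S100a4, S100a11, Lgals3, S100a13 and Anxa1, with overlap for Vim and S100a10 and for S100a4 and S100a11. S100a4 thus took the eighth place in naive cells, the second in spleen-primed and the sixth in MLN-primed cells.

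Partners outside the pairs above varied less uniformly. Of 9 tested genes for binding partners and receptors, 3 rose and 2 fell in spleen-primed and 1 rose and 3 fell in MLN-primed against naive cells, where 43.1% and 45.5% of all tested genes rose and 32.7% and 33.2% fell. In spleen-primed cells 4 fell without naive replicate 2, with Cpne1 at -0.28 and Lgals3bp at -0.30, 4 without spleen-primed replicate 3 and MLN-primed replicate 1 together, 5 with quantile normalisation and 1 with the length trend removed. In MLN-primed cells 5 fell with median-of-ratios scaling or quantile normalisation, and 3 rose with the length trend removed. Cacybp, which encodes the calcyclin-binding protein that S100A6 binds, rose from 29.5 ± 2.72 FPKM to 57.5 ± 9.04 and 96.3 ± 12.1 (0.93 and 1.67, limma adjusted p = 6.79e-05 and 7.42e-07), and MLN-primed exceeded spleen-primed cells by 0.74 (limma adjusted p = 0.00194), the opposite direction to S100a6. Ahnak, the large scaffold that binds S100A10 and annexin A2, rose by 1.32 in spleen-primed cells (limma adjusted p = 0.00733) and was at 0.86 in MLN-primed cells (limma adjusted p = 0.051), a difference past the threshold with the length trend removed (1.49), without naive replicate 3 (1.07) or MLN-primed replicate 1 (1.23), and, at 0.86, without spleen-primed replicate 1 or 3, with the libraries of both groups alone or with the replicate block. Myh9, the non-muscle myosin that S100A4 binds, lay at 42.4 to 236.7 FPKM over the spleen-primed and 32.5 to 227 over the MLN-primed libraries and passed in none of the comparisons (limma adjusted p = 0.251, 0.419 and 0.798). The 3 formyl peptide receptor genes of the list, Fpr1, Fpr2 and Fpr3, did not exceed 0.152 FPKM in any library.

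Other calcium sensors and actin genes mostly rose with priming. Of 19 tested calcium sensors 13 rose and 1 fell in spleen-primed and 12 rose and 3 fell in MLN-primed cells, where 43.1% and 45.5% of all tested genes rose and 32.7% and 33.2% fell. Their medians were 0.83 and 0.52, and Swap70 was the largest, from 1.83 ± 0.0615 to 12.6 ± 1.26 and 12.8 ± 1.75 FPKM. Of 30 actin and cell cortex genes, 24 rose in spleen-primed cells, where the other 6 were not past the threshold, and 23 rose and 2 fell in MLN-primed cells, with medians of 0.90 and 0.67. In spleen-primed cells 2 genes of this list fell with median-of-ratios scaling, 3 with quantile normalisation and 1 without MLN-primed replicate 1 or with the replicate block, and 2 with the length trend removed, and in MLN-primed cells 7 fell with quantile normalisation. Of the calcium sensors, 4 (spleen-primed) and 5 (MLN-primed) fell with quantile normalisation. Capg, a calcium-dependent actin capping protein, rose from 7.14 ± 0.411 to 72.5 ± 2.82 and 70.0 ± 5.69 FPKM (3.18 and 3.12, limma adjusted p = 3.00e-10 and 2.97e-10), and Crip1 from 903 ± 55.3 to 3329 ± 296 and 1864 ± 120. Between the primed groups 12 of the 30 were lower and 2 higher in MLN-primed cells (7 lower without spleen-primed replicate 2), and 9 calcium sensors were lower and 1 higher (5 lower without spleen-primed replicate 2 or MLN-primed replicate 3), where 13.1% of all tested genes were lower and 17.3% higher. Among the actin genes were Zyx at -1.02 and Crip1 at -0.83 (limma adjusted p = 0.00313 and 1.96e-04).

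Markers of other cells were checked because myeloid cells express several of the 10 genes. The CD8 T cell list (Cd8a, Cd8b1, Cd3d, Cd3e, Cd3g and Cd2) summed to 3274 to 3602 FPKM (naive libraries), 2339 to 2442 (spleen-primed) and 1545 to 1612 (MLN-primed). The 11 macrophage and monocyte genes in the table summed to 8.50, 15.2 and 24.3 FPKM in the naive libraries, 47.0 to 49.1 in spleen-primed and 15.5 to 18.6 in MLN-primed libraries, and 5, 8 and 9 of the 11 were under 1 FPKM in every library of those groups. In primed cells that sum was mostly Itgam, an integrin chain that effector CD8 T cells also carry, at 28.7 to 32.0 and 7.63 to 10.2 FPKM, and Cd68, at 13.6 to 17.4 and 7.21 to 8.24 FPKM. In naive libraries Itgam was at 0.218 to 0.521 and Cd68 at 0.669 to 1.54 FPKM. Lyz2 was at 2.12 to 9.75 FPKM in naive libraries, 0.389 to 1.70 in spleen-primed and 0.125 to 0.219 in MLN-primed ones. Mpeg1 was at 3.25 to 6.02, 0.0669 to 0.130 and 0.00940 to 0.0214 FPKM in the same order. Csf1r did not exceed 0.551 FPKM in any library. Of the naive libraries, replicate 1 had the lowest sums of the macrophage, neutrophil and dendritic cell lists, and of the 10 genes 5 were lowest and 2 highest there. Naive replicate 3 had the highest sums of the same lists, and of the 10 genes 5 were lowest and 1 highest there. Dendritic cell markers summed to 81.5 to 146 FPKM in naive and at most 7.26 in primed libraries. The naive sum was mostly Cd74, at 38.1 to 66.8 FPKM, H2-Aa, at 23.6 to 39.7, and H2-Ab1, at 18.5 to 37.2. Flt3, the highest of the other genes of that list, was at most 0.737 FPKM in any library. The 5 NK cell markers summed to 5.20 to 13.8 FPKM (naive), 28.8 to 34.8 (spleen-primed) and 12.8 to 14.5 (MLN-primed), mostly Eomes, a transcription factor that CD8 T cells also express, at 22.8 to 29.4 and 11.4 to 12.8 FPKM in the primed groups, while Ncr1 did not exceed 0.543 FPKM in any library. The 3 CD4 T cell markers summed to 1.09 to 1.81, 5.02 to 7.23 and 3.68 to 5.54 FPKM, mostly Zbtb7b in primed cells, at 4.15 to 6.27 and 2.81 to 4.66, with Cd4 at most 0.269 in any library. The NK sum and that of macrophages and monocytes were thus highest in spleen-primed libraries, mostly through Eomes, Itgam and Cd68. Lyz2, Mpeg1 and Ncr1 of these lists were highest in naive libraries instead. The CD4 sums of the primed groups overlapped. Red cell and platelet markers varied between libraries of 1 group, at 8.14 to 57.0 FPKM (naive), 3.01 to 30.1 (spleen-primed) and 0.346 to 60.1 (MLN-primed). B cell markers summed to 11.2 to 15.0, 7.79 to 9.21 and 11.9 to 15.8 FPKM, mostly Cd79b. Stromal and endothelial markers summed to 37.5 to 44.1 FPKM in naive libraries, mostly Pecam1, and at most 4.57 in primed ones. Epithelial markers summed to at most 1.98 in any library. The part of these markers in the values of the 10 genes was not tested.

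For each gene the closest profiles were looked up among 7755 other genes, by the root mean square difference of centred log2(FPKM + 1) over 9 libraries. Against the mean profile of the 10 genes these were Slamf7 (0.13), Car5b (0.14), Emp1 (0.15), Ctla2b (0.17) and Tigit (0.18). Slamf7, a surface receptor of cytotoxic cells, averaged 1.03 FPKM in naive cells, 46.0 after spleen priming and 30.0 after MLN priming. S100a4 had no near neighbour: the closest was Klrg1 (0.62), the receptor that marks terminal effectors, at 0.726, 157 and 66.3 FPKM, followed by Gzma (0.89). Anxa1 was nearest to Ccr2 (0.22), Itgax (0.24) and Klrc1 (0.24), while Vim was nearest to Plk4 (0.061), Capg (0.082) and Tubb3 (0.092), and Lgals3 to Ccnb2 (0.20), Ube2c (0.21) and Ccna2 (0.22). S100a10 was nearest to Zcchc18 (0.096) and Crip1 (0.099), S100a11 to Pogk (0.11), S100a13 to Cyba (0.092), Lgals1 to Pdcd1 (0.14), Anxa2 to Cdkn3 (0.12) and S100a6 to Ube2c (0.55).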

How the data were processed

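Bulk mRNA from OT-I T cells was sequenced in 9 libraries, 3 per group, grouped by sample titles and tissue labels. Per the labels' protocols a strand-marking kit was used. The authors' deposited FPKM come from TopHat and Cufflinks with mm10, according to the submitters' processing notes, with versions, annotation and strand setting not given in the sources used here. Because FPKM are relative to the library's mapped fragments, very abundant transcripts lower the values of all others. A second table deposited with it was identical. Of 24067 rows, 131 without a symbol (0.0479% of FPKM) were left out. Depth was estimated from the spacing of low values of genes with 1 transcript, of which 57.9% to 61.6% per library lay within 0.1 of a whole fragment; it is approximate.

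Genes with at least 1 FPKM in 3 libraries (10185) were fitted as log2(FPKM + 1), which understates differences of low genes, in 1 model over 9 libraries with limma 3.58.1 (variance trend, two-sided, R 4.3.3). P-values were adjusted by Benjamini-Hochberg over all genes tested, at 0.05. The script was tested on simulated data. Same-numbered naive and spleen-primed libraries deviated together in all 3 pairs (r = 0.160, 0.116 and 0.236 across genes). Differently numbered ones of these groups had r of -0.181 to 0.0567. Same-numbered spleen-primed and MLN-primed libraries had r of 0.645, -0.240 and 0.485, and naive and MLN-primed ones 0.145, -0.241 and 0.116. Spleen-primed replicate 3 and MLN-primed replicate 2, of different number, reached 0.512. The labels give no pairing, and none is taken from these values. Members, lists and alternatives were chosen with earlier results of these data known. All members are named; of each other list, at most the 4 tested genes with the largest difference past the threshold and at least 5 FPKM on average in the higher group, plus the largest in the minority direction, and genes not past it only to account for a list. For profile likeness the 3 nearest genes per member and 5 for the mean profile were taken, without clone names and predicted genes. Promoters and positions are RefSeq, GRCm38.p6 (8 of 10 members matched; S100a10 and Lgals1 have no promoter entry); lengths and near-identical copies (95% over 100 bases, BLAST+ 2.17.0) are from GENCODE transcripts. Tables used Python 3.11.15, pandas 2.3.3, numpy 2.4.6 and matplotlib 3.10.9. The alternatives changed the pseudocount (0.1), the filter (none, or 5 FPKM), the scaling (median-of-ratios or quantile), the variance model (no trend, or robust) and the libraries (those compared alone, each left out in turn, or all but spleen-primed 3 and MLN-primed 1), or added a replicate block or took out a length trend.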

Additional observations from a re-analysis of the deposited data

How the results depend on the processing

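Over 20 alternatives per comparison, 10 members passed in every one in spleen-primed against naive cells, 9 to 10 in MLN-primed against naive and 6 to 9 (8 as reported) in MLN-primed against spleen-primed cells. All tested genes past the threshold numbered 6017 to 9149 (7718 as reported), 6306 to 9746 (8020) and 2139 to 3892 (3093) in these comparisons. Of the genes of the other lists 44 passed between the primed groups as reported, 28 to 43 with a library left out, the lowest without spleen-primed replicate 2. No member changed direction in any alternative. Of the other named genes, 7 values reversed: Sugt1 in spleen-primed against naive cells was at 0.048 with the length trend removed, and in MLN-primed against naive cells quantile normalisation gave -0.17 for Anxa11, -0.32 for Capns1, -0.37 for Emp3, -0.11 for Mgat1 and -0.36 for Spn, with Emp3 at -0.20 with the length trend removed; the cause was not tested. The replicate number as a block gave 7928, 8207 and 3382 genes. The block ended the call of Lgals3 and Lgalsl and gained Nefh between the primed groups, and gained Ahnak in MLN-primed against naive cells. Of 9 same-numbered pairs of libraries 7 correlated above 0.1, with a range of -0.24 to 0.64. The labels give no pairing, and numbers are not taken to pair libraries. Low naive levels, of about 15.2 to 64.8 fragments for Anxa1, limit how closely folds over naive are fixed.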
